A study of Mus musculus with 20 samples.

Results

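The mitochondrially encoded genes of the mouse were followed in 6 polyA RNA libraries from microdissected brain tissue. The members are the 37 gene symbols that start with mt-, out of 34620 symbols in the deposited count tables. They comprise 13 protein-coding genes, 2 rRNA genes and 22 tRNA genes, and 36 of the 37 have at least 1 count in some library. The tissue came from brains that were frozen, sectioned and dissected, and the labels give male C57BL/6 wild-type mice for all 6 libraries, without an age. Precursors gave 1 hippocampal (HP) and 1 striatal library (SP), and young neurons gave 1 library from the pyramidal cells of the hippocampal CA fields (yCA) and 1 from medium spiny neurons (yMSN). The remaining 2 libraries were dorsal medium spiny neurons (dMSN 1 and dMSN 2), the projection neurons of the dorsal striatum, for which the labels have medial in place of medium. The series also holds 14 bisulfite samples, not analysed here.

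The mitochondrial genome is a small circle that is transcribed from both strands into long precursors. In the classical account tRNAs lie between most of the mRNAs and rRNAs and are cut out of these precursors, which frees the transcripts on either side. The mRNAs encode core subunits of respiratory complexes I, III and IV and of the ATP synthase, and the rRNAs and tRNAs serve the ribosome inside the organelle that translates them. All other respiratory subunits are encoded in the nucleus. Neurons depend on oxidative phosphorylation for ion pumping and synaptic transmission. Selection on poly(A) bears on these genes directly, because most of the mitochondrial mRNAs carry poly(A) tails, the rRNAs carry only short ones and mature tRNAs carry none.

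The counts assigned to genes numbered 31282185 in HP and 35874646 in SP, then 35418531 in yCA and 36969136 in yMSN, and lastly 152347673 in dMSN 1 and 145713678 in dMSN 2. In any 1 library, a count of 0 allows up to 0.0249 to 0.0259 CPM (counts divided by effective library size, with TMM factors) in dMSN and up to 0.0691 to 0.0861 CPM in the precursor and young libraries. The 10 medium spiny neuron markers summed to 6467 CPM in dMSN 1 and 6476 CPM in dMSN 2, against 481 CPM in yMSN, 606 CPM in yCA and 69.3 to 74.9 CPM in the precursors, so these markers did not set yMSN above yCA. Bcl11b alone made up 296 CPM of the sum in yMSN. The 7 pyramidal neuron markers summed to 581 CPM in yMSN, above its medium spiny neuron sum, and to 1152 CPM in yCA. Their sums were 1192 CPM in dMSN 1, 1924 CPM in dMSN 2 and 41.5 to 80.4 CPM in the precursors. Markers of other tissues were also present, with 10 of 10 skeletal muscle markers above 0 in every library and with sums of 4217 CPM (yCA) and 1472 CPM (yMSN), against 16.4 to 18.3 CPM in the precursors. All 6 oligodendrocyte markers were above 0 in every library and summed to 7151 to 8398 CPM in dMSN, against 57.4 to 97.2 CPM in the other 4 libraries. All 4 choroid plexus markers were above 0 and summed to 4386 to 5556 CPM in dMSN, against 15.7 to 329 CPM elsewhere. Most of that sum was Ttr, with 5462 CPM in dMSN 1 and 4292 CPM in dMSN 2. Folr1 and Kl were also higher in dMSN, but Clic6 had 33.7 and 33.6 CPM there, against 63.7 CPM in yMSN. Sums in dMSN were also 1353 to 1460 CPM for 5 astrocyte markers and 451 to 512 CPM for 5 microglia markers, against 78.4 to 333 CPM and 33.9 to 81.7 CPM elsewhere. Xist, the RNA of the inactive X chromosome in females, had 0 to 4 counts in dMSN, against 21239 to 43205 in HP, SP, yCA and yMSN, although all are labelled male. Kdm5d, Ddx3y and Eif2s3y, genes of the Y chromosome, summed to 8258 counts in dMSN 1 and 9348 in dMSN 2, 2108 in yMSN and 672 in HP, and to 0 in yCA and SP. HP and yMSN thus held both Xist and Y-linked RNA, and SP and yCA only Xist of these genes, which goes against their label. In bulk tissue of this kind, fewer cells of a type and less RNA per cell cannot be told apart. The part of tissue composition in the results on mitochondrial genes was not tested.

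The share of each library that came from the mitochondrial genome was larger in dMSN than in any precursor or young library. The 37 members held 1.79% of the gene counts in HP and 1.91% in SP, then 1.63% in yCA and 2.49% in yMSN, and lastly 3.52% in dMSN 1 and 2.77% in dMSN 2. The dMSN mean was 3.14% ± 0.530 (SD, n = 2), against a mean of 1.96% over the other 4 libraries. Both dMSN libraries lay above all 4 others, but dMSN 2 was nearer to yMSN than to dMSN 1. Counting error was small beside these gaps, with an exact (Clopper-Pearson) 95% interval of 2.767% to 2.772% in dMSN 2 and 2.488% to 2.498% in yMSN. With 2 libraries against 4, an exact permutation test cannot give a p below 0.0667, so the share is given as a description.

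The protein-coding, rRNA and tRNA entries did not move together. The 13 protein-coding members alone took 1.76% of gene counts in HP and 1.87% in SP, then 1.60% in yCA and 2.44% in yMSN, and lastly 3.10% in dMSN 1 and 2.33% in dMSN 2. On this measure dMSN 2 was below yMSN, and the dMSN libraries overlapped the others. The 2 rRNA members took 0.0277% in HP and 0.0302% in SP, then 0.0355% in yCA and 0.0464% in yMSN, and lastly 0.422% in dMSN 1 and 0.437% in dMSN 2. The rRNA share was thus near 0.43% in both dMSN libraries (0.429% ± 0.0104, SD, n = 2), far above every other library and with little spread. The 22 tRNA entries together took 0.00198% in dMSN 1 and 0.00151% in dMSN 2, against 0.00350% to 0.00632% in the other libraries. Within the mitochondrial counts, rRNA entries made up 11.99% in dMSN 1 and 15.8% in dMSN 2, against 1.54% to 2.17% elsewhere. The protein-coding entries made up 88.0% and 84.2% of mitochondrial counts in dMSN 1 and dMSN 2, against 97.6% to 98.2% in the others.

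**Figure D1:**
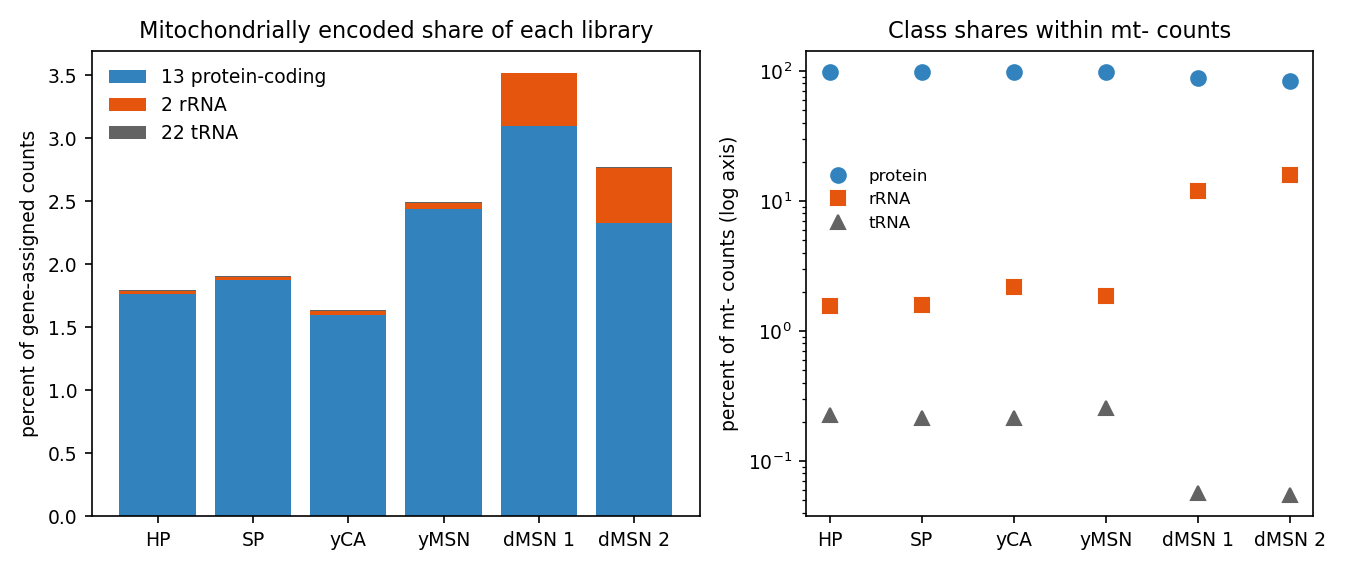
Left, the percent of gene-assigned counts in the 37 mt- symbols, 1 bar per library, stacked by class from 0; the bars reach 3.52% in dMSN 1 and 2.77% in dMSN 2, and the rRNA part is visible as a thick band in dMSN alone. Right, the percent of all mt- counts in each class on a log axis, with circles for protein-coding, squares for rRNA and triangles for tRNA entries; the rRNA share is 11.99% and 15.8% in dMSN and 1.54% to 2.17% in the other 4 libraries.

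All levels that follow are CPM scaled by TMM, a method that sets library sizes so that most genes do not differ. The scaling matters for these genes, since the TMM factors were 0.790 and 0.795 in dMSN and 1.10 to 1.18 in the other libraries. Without it, the median log2 change of all 19192 genes tested between dMSN and yMSN moves to -0.68, against -0.11 with it, and 31.0% of all calls are increases, against 47.6% with it. Between dMSN and SP the median moves to -0.25 without TMM, against 0.20 with it, and the share of increases to 43.4%, against 54.1%. Calls of the protein-coding members in that comparison depend on the choice, as given with each comparison. Relative to the median of all genes, the change in mt-Co1 between dMSN and yMSN was 1.09 on the log2 scale with TMM and 1.09 without it. Scaling shifts all genes of a library alike and so cancels when the median is subtracted. The equal values therefore follow from the arithmetic and are no check on the choice of scaling.

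Complex IV, cytochrome c oxidase, passes electrons to oxygen, and its 3 mitochondrial subunits form the catalytic core. mt-Co1, which holds the oxygen-reducing centre, had 3761 CPM in HP and 4168 in SP, then 3056 in yCA and 4935 in yMSN, and lastly 10781 in dMSN 1 and 8666 in dMSN 2. mt-Co2, which receives electrons from cytochrome c, had 1447 CPM in HP and 1510 in SP, then 1219 in yCA and 2007 in yMSN, and lastly 4893 in dMSN 1 and 3199 in dMSN 2. mt-Co3, the third core subunit, had 2379 CPM in HP and 2419 in SP, then 2790 in yCA and 3445 in yMSN, and lastly 7032 in dMSN 1 and 5271 in dMSN 2. For each of the 3 genes both dMSN libraries lay above all 4 others, and yMSN came next. Against yMSN the increases in dMSN were 0.98 ± 0.29 for mt-Co1 (log2 change ± SE, adjusted p = 0.00898, edgeR), 1.01 ± 0.30 for mt-Co2 (adjusted p = 0.0100) and 0.84 ± 0.28 for mt-Co3 (adjusted p = 0.0199). Against SP they were 1.22 ± 0.29, 1.42 ± 0.31 and 1.35 ± 0.29 for mt-Co1, mt-Co2 and mt-Co3, with adjusted p of 0.00218, 0.00116 and 0.00117 in edgeR. The 3 calls against yMSN were lost without TMM, where the log2 changes were 0.41, 0.44 and 0.27 for mt-Co1, mt-Co2 and mt-Co3.

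Complex III hands electrons to cytochrome c, and mt-Cytb is its only mitochondrially encoded subunit, the one that binds quinone. mt-Cytb had 1979 CPM in HP and 2211 in SP, then 1876 in yCA and 2739 in yMSN, and lastly 5311 in dMSN 1 and 3960 in dMSN 2, with no overlap between dMSN and the rest. It rose in dMSN by 0.76 ± 0.28 against yMSN (log2 change ± SE, adjusted p = 0.0290, edgeR) and by 1.07 ± 0.28 against SP (adjusted p = 0.00461). Without TMM neither call held, at 0.19 and 0.58 for mt-Cytb. The call against yMSN was also lost with upper quartile scaling and with limma voom, at 0.61 and 0.74.

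Complex I, the entry point for electrons from NADH, has 7 mitochondrially encoded subunits in its proton-pumping membrane arm, and their levels diverged. mt-Nd1, which lies beside the quinone site, had 1554 CPM in HP and 1538 in SP, then 1242 in yCA and 1739 in yMSN, and lastly 2998 in dMSN 1 and 2251 in dMSN 2. mt-Nd2, a pump subunit, had 904 CPM in HP and 877 in SP, then 726 in yCA and 986 in yMSN, and lastly 1698 in dMSN 1 and 1173 in dMSN 2. mt-Nd4, another pump subunit, had 1600 CPM in HP and 1860 in SP, then 1539 in yCA and 2162 in yMSN, and lastly 3537 in dMSN 1 and 2563 in dMSN 2. Both dMSN libraries were above all others for these 3 genes, yet only the comparison with SP passed the test. The log2 changes ± SE in dMSN against SP were 0.77 ± 0.27 for mt-Nd1, 0.71 ± 0.27 for mt-Nd2 and 0.71 ± 0.28 for mt-Nd4 (adjusted p = 0.0215, 0.0329 and 0.0346 in edgeR). Against yMSN the values were 0.59 ± 0.27, 0.54 ± 0.27 and 0.50 ± 0.27 for mt-Nd1, mt-Nd2 and mt-Nd4, with adjusted p of 0.0662, 0.0941 and 0.126 in edgeR. Without TMM the calls against SP were lost, at 0.29, 0.23 and 0.23 for mt-Nd1, mt-Nd2 and mt-Nd4, and the values against yMSN were 0.02, -0.03 and -0.07. Without yCA, which enters the scaling and the estimate of spread, the SP calls for mt-Nd2 and mt-Nd4 were lost too, at 0.62 and 0.63 (adjusted p = 0.0582 and 0.0608). Both were also lost with RLE or upper quartile scaling, the filter at 1 CPM, limma voom and the other model, and mt-Nd1 with the other model, while against yMSN DESeq2 called all 3 as higher, the fit with no filter mt-Nd1 and mt-Nd2, and RLE scaling mt-Nd1.

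mt-Nd5 and mt-Nd3 did not share this pattern. mt-Nd5, the pump subunit at the far end of the arm, had 1028 CPM in HP and 1114 in SP, then 878 in yCA and 1254 in yMSN, and lastly 1054 in dMSN 1 and 919 in dMSN 2. The dMSN libraries lay inside the range of the others for mt-Nd5, and the log2 changes were -0.35 ± 0.23 against yMSN (adjusted p = 0.200, edgeR) and -0.18 ± 0.23 against SP (adjusted p = 0.511). mt-Nd3, a subunit near the joint of the arms, had 258 CPM in HP and 245 in SP, then 257 in yCA and 362 in yMSN, and lastly 233 in dMSN 1 and 147 in dMSN 2. Both dMSN libraries were below all 4 others, and mt-Nd3 fell against yMSN by 0.93 ± 0.26 on the log2 scale (adjusted p = 0.00617, edgeR). Against SP mt-Nd3 gave -0.37 ± 0.26 (adjusted p = 0.216). Without TMM the 2 genes passed as lower in dMSN against both yMSN and SP, at -0.91 and -0.66 for mt-Nd5 and -1.50 and -0.85 for mt-Nd3, with yMSN first in each pair. With the model of lineage and stage in place of 1 mean per cell group, the mt-Nd3 call against yMSN was lost at -0.80.

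mt-Nd6 is the protein gene encoded on the opposite strand to all the others, so without strand information its reads and those of any transcript antisense to it cannot be told apart. mt-Nd6 had 300 CPM in HP and 340 in SP, then 316 in yCA and 466 in yMSN, and lastly 1020 in dMSN 1 and 620 in dMSN 2. Both dMSN libraries were highest, and they differed from each other more than for any other protein-coding member. mt-Nd6 rose by 0.82 ± 0.29 against yMSN (log2 change ± SE, adjusted p = 0.0250, edgeR) and by 1.27 ± 0.30 against SP (adjusted p = 0.00202). The call against yMSN was lost without TMM at 0.25, with upper quartile scaling at 0.66, with limma voom at 0.77 and with the other model at 0.91.

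mt-Nd4l, a small complex I subunit whose reading frame overlaps the start of mt-Nd4, was the protein-coding member with the sharpest contrast. It had 1 count in HP and 0 in SP, yCA and yMSN, and then 913 counts in dMSN 1 and 869 in dMSN 2. In CPM the dMSN mean was 7.54 ± 0.0633 (SD, n = 2), which is at least 109-fold higher than yMSN and at least 99.9-fold higher than SP when a floor of 3 counts per library is used for the count of 0. These counts are few beside the 297037 and more counts of its neighbour mt-Nd4 in each dMSN library. Since the 2 genes overlap, the split of reads between them is uncertain.

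The ATP synthase turns the proton gradient into ATP, and its 2 mitochondrial subunits went in opposite directions in dMSN. mt-Atp8, a small membrane subunit, had 89.1 CPM in HP and 86.6 in SP, then 87.0 in yCA and 91.7 in yMSN, and lastly 192 in dMSN 1 and 178 in dMSN 2. mt-Atp6, which forms the proton path, had 512 CPM in HP and 532 in SP, then 537 in yCA and 578 in yMSN, and lastly 434 in dMSN 1 and 359 in dMSN 2. The 4 precursor and young libraries were nearly level for both genes, with dMSN above them for mt-Atp8 and below them for mt-Atp6. mt-Atp8 rose by 1.01 ± 0.21 against yMSN (log2 change ± SE, adjusted p = 8.92e-04, edgeR) and by 1.10 ± 0.21 against SP (adjusted p = 4.34e-04), and its call against yMSN was lost without TMM at 0.44. mt-Atp6 fell by 0.54 ± 0.22 against yMSN (adjusted p = 0.0455) and gave -0.43 ± 0.22 against SP (adjusted p = 0.103). The mt-Atp6 call against yMSN was lost without yCA at -0.53 (adjusted p = 0.0531) and with RLE scaling, no filter, limma voom or the other model. Against SP mt-Atp6 was called lower with RLE or upper quartile scaling, without TMM, with the filter at 1 CPM and with DESeq2, at -0.91 without TMM and between -0.55 and -0.52 in the others. The 2 genes overlap on the genome, and RefSeq gives mt-Atp6 as a synonym of the nuclear pseudogene Gm10925, so their counts are uncertain.

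**Figure D2:**
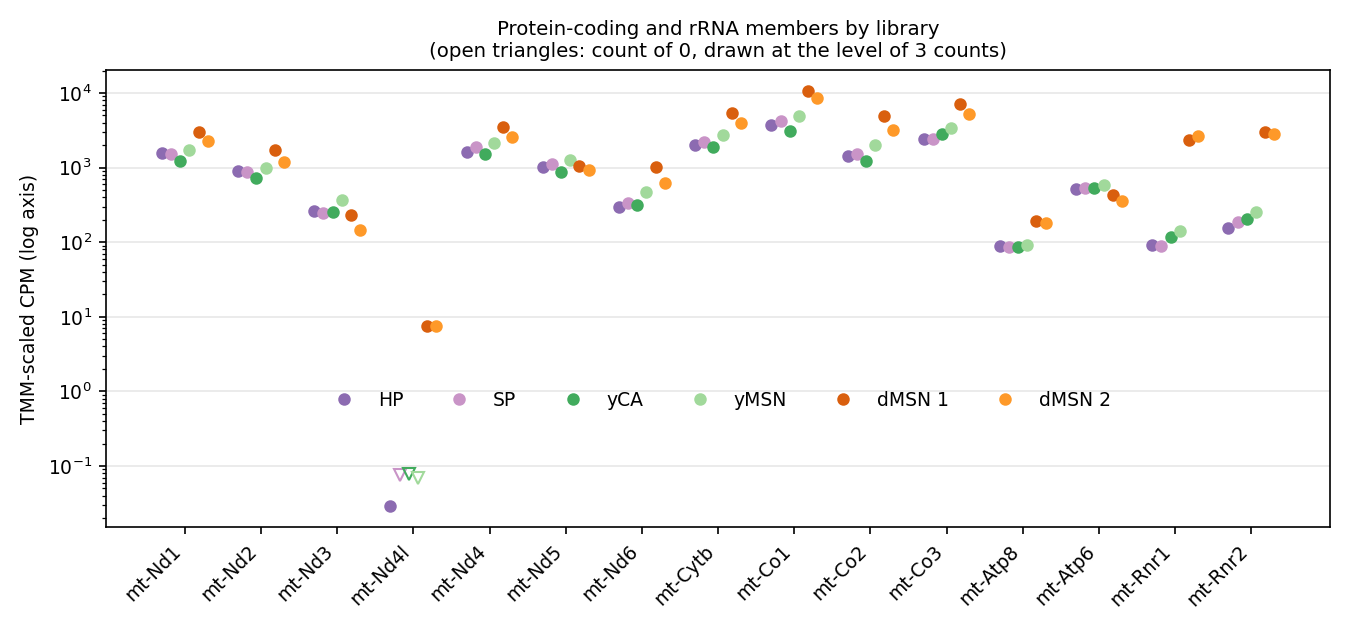
TMM-scaled CPM (log axis) of the 13 protein-coding and 2 rRNA members, 1 point per library, with colours from HP on the left to dMSN 2 on the right within each gene; open triangles stand for a count of 0, drawn at the level that 3 counts would give. The dMSN points lie above the other 4 for 10 of the 13 protein-coding members and both rRNAs, and below them for mt-Nd3 and mt-Atp6. Without TMM (not drawn) 5 of the 13 lie above, a measure on which the share of all genes was not computed.

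The 2 rRNA members had the largest increases in dMSN among the members with counts in every library. mt-Rnr1, the RNA of the small mitochondrial ribosomal subunit, had 92.2 CPM in HP and 87.8 in SP, then 116 in yCA and 143 in yMSN, and lastly 2372 in dMSN 1 and 2661 in dMSN 2. mt-Rnr2, the RNA of the large subunit, had 156 CPM in HP and 185 in SP, then 207 in yCA and 252 in yMSN, and lastly 2969 in dMSN 1 and 2829 in dMSN 2. Both dMSN libraries lay far above all 4 others for the 2 genes, and both young libraries were above both precursors. Read length, annotation and the handling of overlaps for each library are not given in the sources used here, so whether rRNA and mt-Nd4l reads were counted alike in dMSN and the other libraries was not tested. Against yMSN the increases were 4.13 ± 0.29 for mt-Rnr1 (log2 change ± SE, adjusted p = 1.25e-07, edgeR) and 3.53 ± 0.28 for mt-Rnr2 (adjusted p = 3.49e-07). Against SP they were 4.84 ± 0.30 for mt-Rnr1 (adjusted p = 2.56e-08) and 3.97 ± 0.29 for mt-Rnr2 (adjusted p = 9.25e-08). Over the alternatives tried, the log2 change against yMSN ranged between 3.57 and 4.23 for mt-Rnr1 and between 2.96 and 3.61 for mt-Rnr2, and every one passed.

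Counting the members past the threshold, 10 of the 13 protein-coding members and both rRNA members rose in dMSN against SP, where 39.1% of all genes tested rose and 33.1% fell (72.1% either way). None of the 13 fell in that comparison by edgeR with TMM, also at an unadjusted p under 0.05, nor by limma voom. DESeq2 called mt-Atp6 as lower, and so did edgeR with the other settings given above for mt-Atp6, while mt-Nd3 and mt-Nd5 passed as lower in edgeR without TMM. In dMSN against yMSN 7 protein-coding members rose and 2 fell, where 32.1% of all genes rose and 35.4% fell (67.5% either way), and both rRNA members rose. mt-Nd4l, which passed the filter on low counts only through the dMSN libraries, is among the increases, and without it 9 of 12 rose against SP and 6 of 12 against yMSN, with medians of 0.92 and 0.68. The median log2 change of the 13 was 0.76 against yMSN and 1.07 against SP, beside medians of -0.11 and 0.20 over all genes tested. Levels of 10 of the 13 lay above all 4 other libraries in both dMSN libraries and of 2 below, where 36.6% of all genes tested lay above and 34.0% below. Without TMM, as shares of gene counts, 5 of the 13 lay above, 3 lay below and 5 overlapped. The 5 that overlapped were mt-Cytb, mt-Nd1, mt-Nd2, mt-Nd4 and mt-Nd6, and mt-Nd5 joined those below. The share of all genes on that measure was not computed, so these counts only describe how the members depend on the scaling. The comparisons share the dMSN libraries, so their results are not independent of each other. Without TMM the number of called members of any class was 21 against yMSN, 4 of them higher, and 27 against SP, 9 of them higher. The share of all genes called in that setting is not given here. The sums of oligodendrocyte and choroid plexus markers, given above, were also higher in dMSN, although Clic6 was not, and their part was not tested. The p-values measure only the spread between these libraries, since nothing in the labels says that the 2 dMSN libraries came from separate animals, and the groups of 1 library are assumed to vary like the dMSN pair. In edgeR the spread of each gene is also drawn toward that of the other genes tested. With 1 residual degree of freedom in the dMSN comparisons, most of that spread is borrowed in this way. Between the dMSN libraries the 13 protein-coding members had a median absolute log2 ratio of 0.416, against 0.222 over all genes tested. The borrowed spread may therefore be too small for them.

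**Figure D3:**
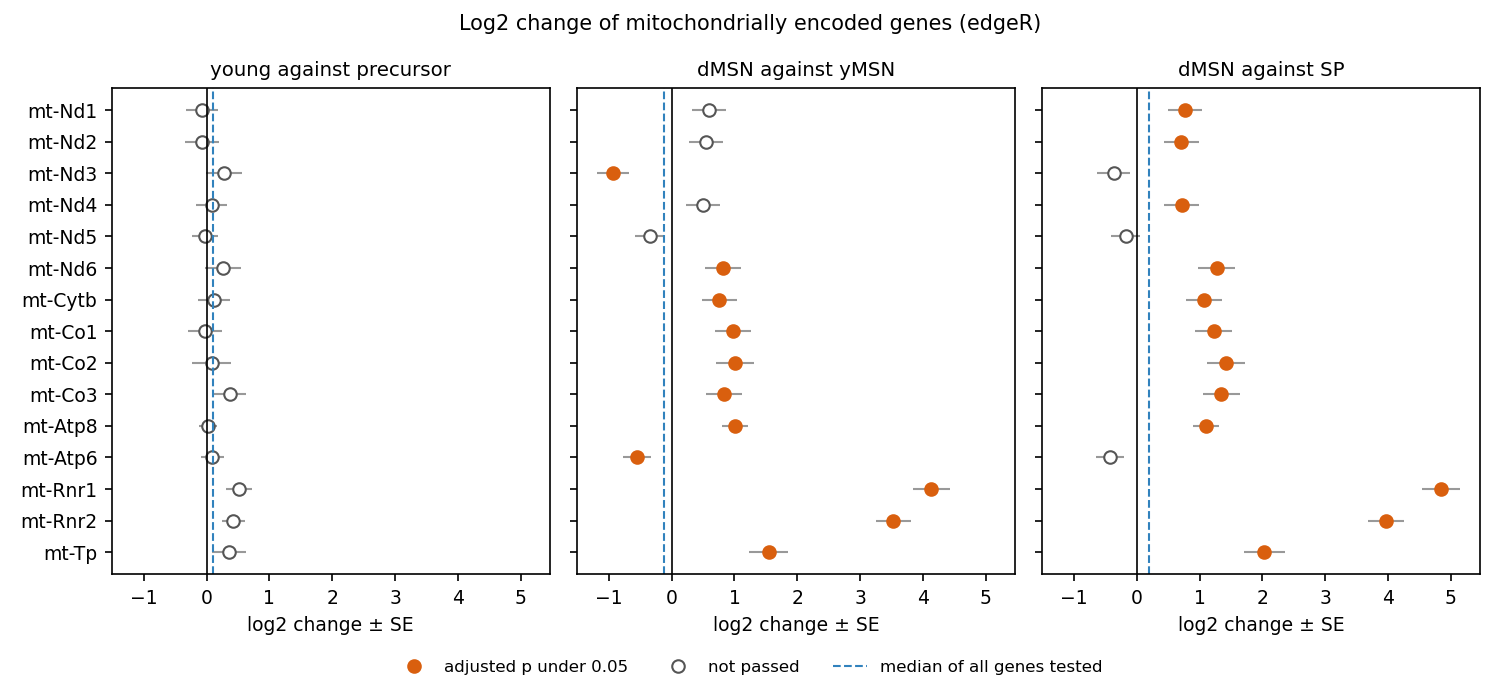
Log2 change (x axis, ± SE) of the protein-coding members other than mt-Nd4l, the rRNA members and mt-Tp in young against precursor, dMSN against yMSN and dMSN against SP, from edgeR with TMM scaling; filled points have an adjusted p under 0.05, open points do not, and the dashed line is the median of all genes tested. All points are open in young against precursor, and mt-Rnr1 and mt-Rnr2 stand at 4.13 and 3.53 in dMSN against yMSN.

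The earlier step, young neurons against precursors over both lineages, showed no called member. Its model has no term for a difference between the lineages in this step, so such a difference enters the spread. For mt-Co1 the log2 ratio was -0.30 in yCA over HP and 0.24 in yMSN over SP. None of the 33 members that passed the filter on low counts had an adjusted p under 0.05 in edgeR, where 35.4% of all genes did. DESeq2 and limma voom also called none, and the number at an unadjusted p under 0.05 was 1, mt-Rnr1, against 9117 of the 19192 genes tested. The log2 changes of the protein-coding members other than mt-Nd4l lay between -0.07 for mt-Nd1 and 0.37 for mt-Co3, with a median of 0.08 over the 13. mt-Co1 gave -0.03 ± 0.27 (log2 change ± SE, adjusted p = 0.951, edgeR) and mt-Co3 gave 0.37 ± 0.26 (adjusted p = 0.304). The 2 rRNAs had the largest values beside their error, at 0.52 ± 0.20 for mt-Rnr1 (adjusted p = 0.0998) and 0.43 ± 0.18 for mt-Rnr2 (adjusted p = 0.124). With 1 mean per cell group, the other model, mt-Rnr1 passed at 0.52 (adjusted p = 0.0377). Signs of changes this small were not stable, since RLE scaling, which moved the median of all genes to -0.02 from 0.10 and the share of calls that are increases to 52.4% from 61.3%, gave mt-Atp6, mt-Atp8, mt-Co2, mt-Cytb and mt-Nd4 a negative sign.

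Within each lineage this step rests on 1 library against 1, so no test can be made for either pair alone. In yMSN over SP, all 12 protein-coding members with counts were higher, by a median of 0.23 on the log2 scale, with every interval from counting error above 0. Of all genes tested 56.0% were higher in yMSN than in SP, with a median of 0.14. In yCA over HP, 3 of 13 were higher and 10 lower, with a median of -0.08, beside 50.5% of all genes higher and a median of 0.01. The difference between the 2 steps was tested as an interaction, and 0 of 33 members passed in edgeR, where 5.2% of all genes did. Of the 33, 31 were positive, where the median log2 value over all genes tested was 0.02. The share of all genes that were positive is not given here. All 33 values come from the same libraries, so their shared sign is not independent support. At an unadjusted p under 0.05 the interaction gave 2 members, both tRNAs. Its value for mt-Co1 was 0.54 ± 0.45 (adjusted p = 0.671), and 1 residual degree of freedom is behind it. Muscle markers, which summed to 1472 CPM in yMSN and to 4217 CPM in yCA, also differ between the 2 young libraries. Summed markers of other tissues were higher in yMSN than in yCA, with 745 CPM against 48.3 CPM for cartilage and bone (7 markers), 775 against 378 for erythroid cells (8), 448 against 317 for stratified epithelium (6) and 296 against 201 for olfactory epithelium (6). Gnal of the olfactory list went the other way, with 145 CPM in yMSN and 164 CPM in yCA. So did Krt4 of the stratified epithelium list, with 23.8 CPM in yMSN and 37.3 CPM in yCA. All markers of these lists were above 0 in both libraries, and their part was not tested.

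Striatal against hippocampal, over both stages, gave no called member in edgeR, where 0.0% of all genes were called, and none at an unadjusted p under 0.05. DESeq2 and limma voom also called no member. mt-Co1 gave a log2 change of 0.42 ± 0.27 (SE), striatal over hippocampal (adjusted p = 1.00, edgeR).

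Most tRNA entries had no count in dMSN. Of the 22, 18 had a count of 0 in both dMSN libraries, although these are the deepest, and 17 of those 18 had counts in some other library. mt-Ts1, a serine tRNA and the most covered tRNA of the precursor and young libraries, had 523 counts in HP and 631 in SP, then 467 in yCA and 1136 in yMSN, and 0 in both dMSN libraries. mt-Te, the glutamate tRNA, had 184 counts in HP and 295 in SP, then 270 in yCA and 450 in yMSN, and 0 in both dMSN libraries. With a floor of 3 counts per library, mt-Ts1 was at least 1010-fold lower in dMSN than in yMSN and mt-Te at least 400-fold lower. Against SP the bounds were 614-fold for mt-Ts1 and 287-fold for mt-Te. Between young and precursor libraries mt-Ts1 gave 0.20 ± 0.35 (log2 change ± SE, adjusted p = 0.691, edgeR) and mt-Te 0.44 ± 0.31 (adjusted p = 0.327).

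Another 4 tRNAs had counts in both dMSN libraries. mt-Tp, the proline tRNA beside the control region, had 3.90 CPM in HP and 3.88 in SP, then 4.55 in yCA and 5.43 in yMSN, and lastly 17.5 in dMSN 1 and 14.2 in dMSN 2. It rose by 1.54 ± 0.31 against yMSN (log2 change ± SE, adjusted p = 8.36e-04, edgeR) and by 2.03 ± 0.32 against SP (adjusted p = 1.07e-04), and both calls held without TMM at 0.98 and 1.55. mt-Tc and mt-Tn, the cysteine and asparagine tRNAs, had 5.14 and 2.26 CPM in dMSN 1 and 3.07 and 1.49 CPM in dMSN 2, against 1.11 to 2.10 CPM for mt-Tc and 0.463 to 1.12 CPM for mt-Tn in the other libraries. For these 3 genes both dMSN libraries were above all 4 others, but without TMM mt-Tn overlapped them. The 3 genes are neighbours of the 2 non-coding stretches of the genome, mt-Tn and mt-Tc of the origin of light-strand replication between them, and mt-Tp of the control region. mt-Tf, on the other side of the control region, was at 0 in every library, and a part of gene position was not tested. mt-Tl1, a leucine tRNA between mt-Rnr2 and mt-Nd1, had 0.141 CPM in dMSN 1 and 0.207 CPM in dMSN 2, against 2.77 to 4.90 CPM in the other libraries, so it was the tRNA that was low but not at 0 in dMSN. Its log2 change ± SE was -4.80 ± 0.42 against yMSN (adjusted p = 7.81e-07, edgeR) and -3.98 ± 0.42 against SP (adjusted p = 2.94e-06).

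The rest of the tRNA symbols had low counts throughout. mt-Tf, the phenylalanine tRNA, was at 0 in all 6 libraries, and mt-Tv, mt-Td and mt-Tk had at most 9 counts in any. These 4 did not pass the filter on low counts. The symbols mt-Ta, mt-Ty, mt-Ti, mt-Tq, mt-Tm, mt-Tw, mt-Tg, mt-Th, mt-Tl2, mt-Ts2, mt-Tr and mt-Tt were at 0 in both dMSN libraries and had between 1 and 42 counts in each precursor or young library. Of the 18 tRNA symbols tested, 13 fell and 2 rose in dMSN against yMSN, and 15 fell and 2 rose against SP. Of all genes tested, 35.4% fell and 32.1% rose against yMSN, and 33.1% fell and 39.1% rose against SP. Many passed the filter only through the libraries in which they had counts, so these numbers are a description. With genes at 0 set to their bound, the median log2 change of the 18 was -4.06 against yMSN and -3.35 against SP.

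A few short genes outside the mitochondrial genome had enough counts to be set beside the tRNA symbols. Of the 10 mitochondrial tRNA symbols with at least 10 counts in each precursor and young library, 6 were at 0 in both dMSN libraries. Of 15 other symbols of at most 100 bases with at least 10 counts in each of those libraries, 0 were at 0 in dMSN, and of 15227 other symbols with such counts, 33 were. All these sets were chosen by counts in the precursor and young libraries, in which the tRNA symbols are high. The part of gene length in the counts of 0 was not tested. Gene lengths here come from RefSeq on GRCm38.p6, which is not the build of the files. Most tRNA genes abut their neighbours, and whether reads that cross 2 genes were assigned alike in all libraries was not tested. The share of reads that the counter set aside as ambiguous was 2.01% in dMSN 1 and 1.66% in dMSN 2, against 1.38% to 1.44% in the other libraries.

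**Figure D4:**
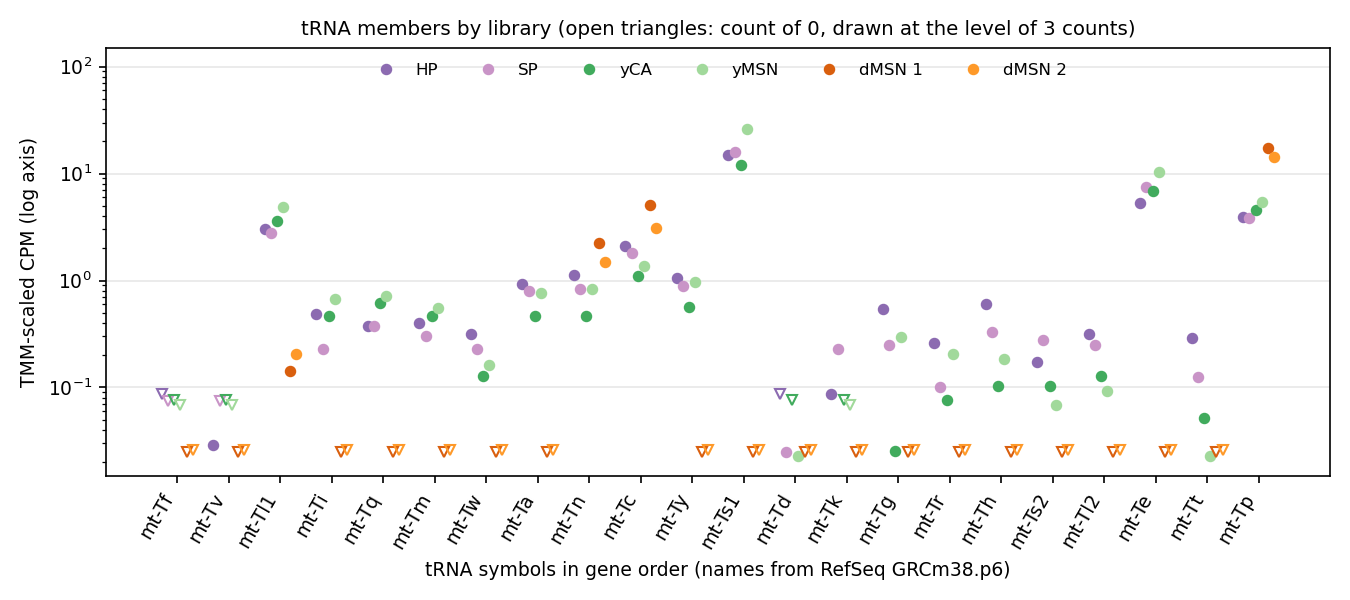
TMM-scaled CPM (log axis) of the 22 tRNA members, placed along the x axis in the order of the genes on the mitochondrial genome, 1 point per library; open triangles stand for a count of 0, drawn at the level that 3 counts would give. In dMSN 18 of the 22 are open triangles in both libraries, and mt-Tn, mt-Tc and mt-Tp lie above the other libraries.

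Expressed per kb of gene length, the order of the mRNAs was alike in all libraries at the top. mt-Co3 was highest in all 6 libraries, with 3035 CPM per kb in HP and 3086 in SP, then 3559 in yCA and 4394 in yMSN, and lastly 8969 in dMSN 1 and 6723 in dMSN 2. mt-Co1, mt-Co2 and mt-Cytb took ranks 2 to 4 in every library, and in dMSN the levels of mt-Co1 (6293 ± 968 CPM per kb, SD, n = 2) and mt-Co2 (5915 ± 1751) did not differ beyond their spread. The lower ranks changed, as mt-Rnr1 was 14 of 15 in the precursor and young libraries and 5 to 7 in dMSN, and mt-Rnr2 was 13 in those 4 libraries and 8 to 9 in dMSN. mt-Nd3 held rank 12 to 14 in dMSN, against 7 to 9 in the others, and mt-Atp6 rank 12 to 13 in dMSN, against 7 to 10. mt-Nd4l was last of the 15 in all 6 libraries. Per kb in dMSN, the 2 rRNAs stood at 2635 ± 214 for mt-Rnr1 and 1833 ± 62.9 for mt-Rnr2 (CPM per kb, SD, n = 2), below mt-Cytb at 4052 ± 835.

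Composition within the mitochondrial mRNA does not depend on library scaling. As a percentage of the 13 protein-coding members' counts, mt-Co1 took 27.5% in dMSN 1 and 29.6% in dMSN 2, against 21.0% to 24.7% in the other libraries. mt-Co2 took 12.5% and 10.9% in dMSN 1 and dMSN 2, against 8.40% to 9.66% in the other libraries. mt-Nd5 took 2.69% in dMSN 1 and 3.13% in dMSN 2, against 6.04% to 6.59%, mt-Atp6 1.11% and 1.22%, against 2.78% to 3.70%, and mt-Nd3 0.594% and 0.502%, against 1.45% to 1.77%. Of the 13 members, 4 (mt-Co1, mt-Co2, mt-Cytb and mt-Nd4l) had both dMSN libraries above all others by this measure and 6 (mt-Nd1, mt-Nd2, mt-Nd3, mt-Nd4, mt-Nd5 and mt-Atp6) had both below. Of all genes tested, expressed in the same way per mitochondrial protein-coding count, 18.5% were above and 49.7% below. The 6 that were below include 5 of the 7 complex I subunits. With 49.7% of all genes below by this measure, that count is not read as a result on complex I. These percentages also share a total, so a rise in some members lowers the others.

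The 2 dMSN libraries differed from each other in the mitochondrial mRNA more than in a typical gene. All 13 protein-coding members were higher in dMSN 1 than in dMSN 2, with a median log2 ratio of 0.42, and 12 of the 13 had a 95% interval from counting error above 0. The median absolute log2 ratio over all genes tested was 0.222 between these libraries. The ratio was 0.72 for mt-Nd6, 0.66 for mt-Nd3, 0.61 for mt-Co2, 0.31 for mt-Co1, 0.11 for mt-Atp8 and 0.02 for mt-Nd4l. The rRNAs did not follow, at -0.17 for mt-Rnr1 and 0.07 for mt-Rnr2. The mRNA part summed to 39191 CPM in dMSN 1 and 29314 CPM in dMSN 2, the tRNA part to 25.0 and 19.0 CPM, and the rRNA part to 5342 and 5490 CPM. The mRNA and tRNA parts were thus higher in dMSN 1, and the rRNA part was nearly level. All 7 pyramidal neuron markers were above 0 in both libraries and summed to 1192 CPM in dMSN 1 and 1924 CPM in dMSN 2, and their part in this difference was not tested.

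The listed nuclear genes of oxidative phosphorylation had larger median log2 changes in dMSN than the mitochondrial protein-coding members, a difference that is described and not tested. Sdha, Sdhb, Sdhc, Sdhd and Cycs are among the 52 listed but belong to none of complexes I, III and IV or the ATP synthase. All 52 listed nuclear-encoded subunits rose in dMSN against yMSN and against SP, with median log2 changes of 2.21 and 2.25. Of all genes tested 32.1% rose against yMSN and 39.1% against SP, with medians of -0.11 and 0.20. Among the largest, Cox5b, a complex IV subunit, had 676 CPM in dMSN 1 and 614 CPM in dMSN 2, against 56.6 CPM in yMSN and 42.2 CPM in SP. It rose by 3.51 ± 0.25 against yMSN (log2 change ± SE, adjusted p = 1.52e-07, edgeR). Ndufs7, a complex I subunit that holds an iron-sulfur cluster, rose by 3.24 ± 0.25 (adjusted p = 2.93e-07), the ATP synthase subunit gene Atp5l by 3.24 ± 0.24 (adjusted p = 1.91e-07) and Atp5g1, for the ring through which protons pass, by 3.09 ± 0.25 (adjusted p = 4.00e-07). Without TMM 51 of the 52 rose against yMSN and 49 against SP. The share of all genes that rose in that setting is not given here. In young against precursor 0 of the 52 passed in edgeR, where 35.4% of all genes did, with a median log2 change of 0.02, while DESeq2 called 2 and limma voom none.

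As a ratio of summed counts, the 13 mitochondrial members had 2.28 counts per count of the 52 nuclear subunits in HP and 2.56 in SP, then 2.21 in yCA and 3.33 in yMSN, and lastly 1.48 in dMSN 1 and 1.21 in dMSN 2. The dMSN mean was 1.35 ± 0.191 (SD, n = 2), against 2.60 over the other libraries, and the groups did not overlap. The ratio was lower in both dMSN libraries in each of the complexes. For complex I it was 2.35 in dMSN 1 and 1.89 in dMSN 2, against 4.93 to 7.34, and for complex III 1.87 and 1.53, against 2.42 to 3.93. For complex IV it was 3.26 and 2.79 in dMSN, against 7.03 to 9.47, and for the ATP synthase 0.0595 and 0.0552, against 0.168 to 0.224. These ratios compare counts within a library and so do not depend on its scaling, and the part of tissue composition in them was not tested.

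**Figure D5:**
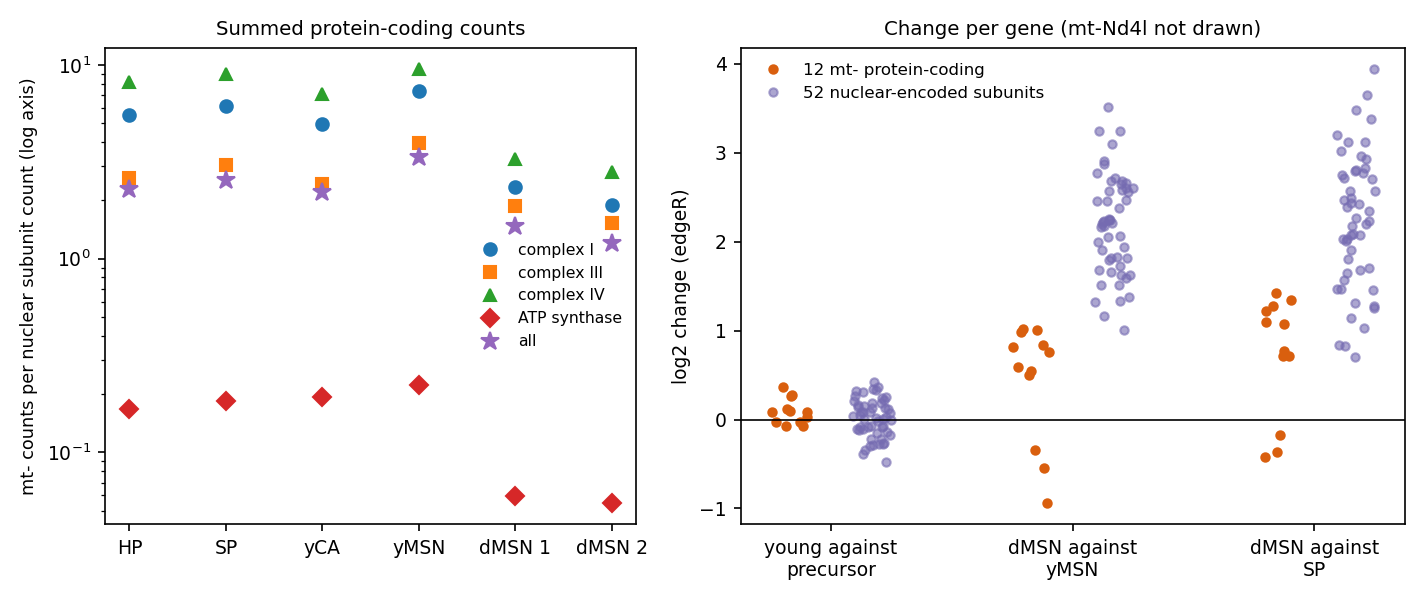
Left, summed counts of the mitochondrial protein-coding members per summed count of listed nuclear subunits (log axis), for each complex and for all 52, by library; the ratios are lowest in dMSN 1 and dMSN 2 for every complex. Right, log2 change of each gene in 3 comparisons, 12 mitochondrial protein-coding members (orange) left of 52 nuclear subunits (purple), with random sideways scatter; the nuclear medians are 0.02, 2.21 and 2.25.

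Genes that copy, transcribe and process the mitochondrial genome changed in both directions. Of 31 such genes in the files, 0 rose and 13 fell in young against precursor, 8 rose and 3 fell in dMSN against yMSN, and 8 rose and 11 fell in dMSN against SP. Of all genes tested, 21.7% rose and 13.7% fell in young against precursor, 32.1% rose and 35.4% fell in dMSN against yMSN, and 39.1% rose and 33.1% fell in dMSN against SP. The median log2 changes of the 31 were -0.50, 0.33 and -0.23 in the 3 comparisons, beside 0.10, -0.11 and 0.20 over all genes tested. The RNA degradation gene Pnpt1 fell by 0.98 ± 0.18 in young against precursor (log2 change ± SE, adjusted p = 0.0134, edgeR) and by 1.55 ± 0.22 in dMSN against SP (adjusted p = 3.47e-05). The helicase gene Peo1, for the Twinkle protein that unwinds mitochondrial DNA, fell by 1.41 ± 0.21 in dMSN against SP (adjusted p = 5.03e-05). Mrpl12, a ribosomal protein gene, rose by 2.04 ± 0.23 in dMSN against yMSN (adjusted p = 7.21e-06), and the topoisomerase gene Top1mt rose by 2.08 ± 0.28 against SP (adjusted p = 2.56e-05).

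Nuclear regulators of mitochondrial biogenesis were also followed. Of 8 in the files, 3 rose and 4 fell in dMSN against yMSN, 4 rose and 4 fell against SP, and 2 rose and 4 fell in young against precursor. With 67.5% of all genes called either way against yMSN, 72.1% against SP and 35.4% in young against precursor, these counts are not read as a result on the list. Ppargc1a, the coactivator PGC-1 alpha, had 4.31 CPM in HP and 4.28 in SP, then 26.6 in yCA and 17.2 in yMSN, and lastly 30.6 in dMSN 1 and 31.0 in dMSN 2, and it rose by 2.32 ± 0.24 in young against precursor (log2 change ± SE, adjusted p = 0.00321, edgeR). Whether the level of Ppargc1a bears on the mitochondrial members was not tested. Esrra, a nuclear receptor that PGC-1 alpha activates, had 108 and 102 CPM in dMSN 1 and dMSN 2, against 15.2 to 22.3 CPM in the other libraries, and rose by 2.30 ± 0.23 against yMSN (adjusted p = 2.45e-06). Sirt3, a mitochondrial deacetylase, rose by 2.75 ± 0.23 against yMSN (adjusted p = 6.81e-07). Gabpa, the DNA-binding part of nuclear respiratory factor 2, fell to 13.1 and 14.4 CPM in dMSN 1 and dMSN 2, against 60.8 to 106 CPM elsewhere, a change of -2.14 ± 0.19 against yMSN (adjusted p = 1.07e-06).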

How the data were processed

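The authors deposited 1 table per library of raw counts of reads for each gene symbol, with 5 summary lines of the counter; those lines were left out of library sizes and tests. The submitters' processing notes name TopHat2 2.0.2, TopHat, Bowtie 1.0.0, HTSeq, edgeR, Bismark and methylKit and the builds mm9 and NCBIM37, without roles. The strand setting is not given in the sources used here. Reads that aligned to several places were 17.3% to 27.3% of each table, 5.34% to 9.81% fell in no gene and 1.38% to 2.01% were ambiguous. Mitochondrial reads shared with nuclear copies are therefore uncertain.

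The analysis of these counts used edgeR 4.0.16 under R 4.3.3 (TMM, filterByExpr, quasi-likelihood F test, Benjamini-Hochberg over 19192 genes, threshold 0.05). Young against precursor and striatal against hippocampal came from a model with lineage and stage (2 residual degrees of freedom), and dMSN against yMSN or SP from 1 mean per cell group (1 residual degree of freedom). The model with lineage and stage has no interaction term, so unlike steps in the lineages enter its spread beside the dMSN pair. The SE is the log2 change divided by the square root of F. Of the 37 members 33 passed the filter. Fitted changes of genes at 0 in a group are not printed; bounds use 3 counts per library. Log2 ratios of single libraries use a prior count of 2. Intervals and floors cover counting error only. Gene lengths, neighbours and names of the 37 members were matched to RefSeq (GRCm38.p6, not the build of the files).

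The members, lists and tests were chosen with earlier results of these data known. Named were all 37 members by level, changes of protein-coding, rRNA and tRNA members of at least 5 CPM, and from each list up to 4 called genes with the largest changes. Alternatives were other scalings, filters, DESeq2 1.42.0, limma 3.58.1 voom, robust moderation, the other model and each library left out. The steps were tested on simulated data.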

Additional observations from a re-analysis of the deposited data

How the results depend on the processing

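The number of called members was within 1.5 times its first value in all comparisons except 3 cases. The share of all genes called under each alternative is not given here. With a filter of at least 1 CPM in 2 libraries, which tested 22 members, 17 were called in dMSN against yMSN and 17 in dMSN against SP, where 26 and 29 were called before; fewer tRNA symbols enter that test. With the other model, 1 member was called in young against precursor. In that comparison several protein-coding members changed sign, with the cause not tested. RLE scaling and DESeq2 gave -0.037 for mt-Atp6, -0.11 for mt-Atp8, -0.049 for mt-Co2, -0.014 for mt-Cytb and -0.050 for mt-Nd4. mt-Atp8 was -0.017 with no filter, -0.016 with the filter at 1 CPM and -0.029 without both dMSN libraries, an alternative chosen after seeing the data. On total counts mt-Co1 was 0.0051 and mt-Nd5 0.0039. In dMSN against yMSN total counts gave -0.028 for mt-Nd2 and -0.072 for mt-Nd4. With each library left out in turn, young against precursor ranged between -0.039 and 0.075 for mt-Atp8, -0.30 and 0.24 for mt-Co1, -0.25 and 0.40 for mt-Co2, -0.080 and 0.30 for mt-Cytb, -0.33 and 0.17 for mt-Nd1, -0.32 and 0.16 for mt-Nd2, -0.014 and 0.56 for mt-Nd3, -0.060 and 0.21 for mt-Nd4, -0.23 and 0.16 for mt-Nd5 and -0.33 and 0.71 for mt-Ts1. The share of the library in mitochondrial symbols was higher in dMSN by 1.19 percentage points, and by 0.79 to 2.23 under its other definitions and 0.81 to 1.56 with a library left out. Single members were also followed with a library outside the compared groups left out. Of these values, 44 of 45 in dMSN against yMSN and 43 of 45 in dMSN against SP kept direction and call. Under the other settings 125 of 150 did against yMSN, with 16 calls lost, 7 gained and 2 changes of sign, and 128 of 150 against SP, with 15 lost and 7 gained. Leaving out a dMSN library leaves no residual degrees of freedom in the model of cell groups, so the dMSN comparisons have no such value. Leaving out yMSN or SP removes the comparison with it. The libraries that were left out enter only the filter, the scaling and the estimate of spread. The 44 of 45 and 43 of 45 are therefore no check on the compared libraries themselves. No paired analysis was possible because the RNA groups share only replicate number 1. Depth limits the tRNA symbols, many of which have under 20 counts in the shallower libraries.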

Other observations

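A pair of nuclear symbols related in name or sequence to the mitochondrial genome was looked at after its values were seen. Lars2, which encodes the mitochondrial leucine-tRNA ligase, took 0.113% of gene counts in HP and 0.146% in SP, then 0.252% in yCA and 0.233% in yMSN, and lastly 0.335% in dMSN 1 and 1.02% in dMSN 2. Its 1493447 counts in dMSN 2, against 510986 in dMSN 1, make it a gene on which the 2 dMSN libraries are far apart in the direction opposite to the mitochondrial mRNAs. Gm10925, a pseudogene for which RefSeq gives mt-Atp6 among its synonyms, had 2016 counts in HP and 2224 in SP, then 2101 in yCA and 2738 in yMSN, and lastly 10651 in dMSN 1 and 9264 in dMSN 2, beside 41555 to 52247 counts of mt-Atp6 in dMSN and 17830 to 25107 in the other 4 libraries.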
